A study of Mus musculus with 11 samples.

Results

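The 8 genes described here, Ndn, Snrpn, Peg3, Plagl1, Nnat, Meg3, Impact and Ube3a, are imprinted genes expressed in brain, taken by symbol from a table of 16228 genes in 11 libraries of mouse cerebral cortex at postnatal day 30. The group was selected on the measured level of Ndn, which differed between 2 genotypes of control animals, so the values of the control genotypes are given as a description, with no test. All 8 had a row and all 8 passed the filter on low values. The RNA came from cortical punches of 4 animals with the genotype Ng2 Cre+ Prkci f/f (Prkci cKO), 3 with Ng2-Cre+ Prkcz f/f (Prkcz cKO) and 4 controls. Among the controls, replicates 3 and 4 carried Pkcz f/f (f/f below) and replicates 1 and 2 carried Pkcz f/+ (f/+ below). The control labels name no Cre, and no control of the Prkci line was among these samples. Ng2-Cre is driven by regulatory sequence of the gene for the NG2 proteoglycan, which marks oligodendrocyte precursors and also vascular mural cells, while these 8 genes are read in whole tissue.

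Imprinted genes are transcribed mainly from the allele inherited from one parent, set by DNA methylation at imprinting control regions that is laid down in the germ line. Ndn and Snrpn belong to the Prader-Willi domain, where the paternal allele is active, and Ube3a lies beside them. In neurons Ube3a is transcribed mainly from the maternal allele, while an antisense RNA from the Snrpn side silences the paternal copy. Meg3 is a maternally transcribed long noncoding RNA, and Peg3, Plagl1, Nnat and Impact are transcribed from the paternal allele. The deposited values sum both alleles, so they say how much of each RNA was present and not from which parent.

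Positions are those of GENCODE M21 on GRCm38. Ndn (chromosome 7, 62346569 to 62350262, plus strand) lies near Magel2 (62377010 to 62381640). Snrpn (chromosome 7, 59982495 to 60140219, minus strand) spans Snurf, a reading frame on the same transcript, so reads of the pair cannot be told apart. Ube3a lies at 59228750 to 59311536 on the plus strand of chromosome 7 and overlaps its antisense partner Snhg14, which was not analysed here. Peg3 lies on another part of chromosome 7 (6703892 to 6730431), and Plagl1 on chromosome 10 (13060504 to 13131694). Meg3 is on chromosome 12 (109541001 to 109571726). Nnat (chromosome 2, 157560078 to 157562522, plus strand) lies inside the span of Blcap, on the opposite strand. The sources used here do not say if counting took strand into account.

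Promoter windows are shown for the 3 genes that stood furthest apart between the control genotypes, Ndn, Nnat and Meg3, and for Snrpn, the neighbour of Ndn that did not move with it. Each runs from 250 bases before to 50 bases after a transcription start in RefSeq (GRCm38.p6), 5′ to 3′ on the strand of the gene. Capitals mark each stretch that holds GCATGCG on either strand (matches on both strands overlap), a string chosen after the sequences were seen.
Ndn, chr7:62348027-62348326, plus strand: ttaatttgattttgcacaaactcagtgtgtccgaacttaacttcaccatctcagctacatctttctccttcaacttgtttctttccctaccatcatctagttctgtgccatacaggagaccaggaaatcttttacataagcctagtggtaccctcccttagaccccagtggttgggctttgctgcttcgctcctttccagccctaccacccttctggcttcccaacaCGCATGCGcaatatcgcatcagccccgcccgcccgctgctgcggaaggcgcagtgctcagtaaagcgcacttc
Nnat, chr2:157559828-157560127, plus strand: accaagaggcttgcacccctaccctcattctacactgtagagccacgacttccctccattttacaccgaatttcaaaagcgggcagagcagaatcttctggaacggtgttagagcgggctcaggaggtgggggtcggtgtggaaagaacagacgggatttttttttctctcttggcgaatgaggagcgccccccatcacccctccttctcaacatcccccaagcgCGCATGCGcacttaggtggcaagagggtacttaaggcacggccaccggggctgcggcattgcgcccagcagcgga
Meg3, chr12:109540746-109541045, plus strand: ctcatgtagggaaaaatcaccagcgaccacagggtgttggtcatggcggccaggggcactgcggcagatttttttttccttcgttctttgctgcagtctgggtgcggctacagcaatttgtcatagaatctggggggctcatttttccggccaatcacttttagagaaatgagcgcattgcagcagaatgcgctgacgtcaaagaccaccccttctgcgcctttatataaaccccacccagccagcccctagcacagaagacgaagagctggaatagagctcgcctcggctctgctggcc
Snrpn, chr7:60005150-60005449, minus strand: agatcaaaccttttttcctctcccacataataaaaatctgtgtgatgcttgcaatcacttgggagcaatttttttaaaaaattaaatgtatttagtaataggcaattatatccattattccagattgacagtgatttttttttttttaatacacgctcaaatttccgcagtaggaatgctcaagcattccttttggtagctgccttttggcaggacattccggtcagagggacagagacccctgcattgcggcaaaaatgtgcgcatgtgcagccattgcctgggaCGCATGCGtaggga

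RefSeq windows were at hand for 7 of the 8 genes, 11 windows in all. GCATGCG was present in 6 of the 11 windows, those of Ndn and Nnat and all 4 of Snrpn, and in 3.58% of 32851 mouse promoter windows of the same length. The string was picked from these sequences, so nothing is read from its share. TGCCGC, the hexamer bound by the imprint-maintaining protein ZFP57 when methylated, was present in 4 of the 11 windows, 1 each of Meg3, Nnat, Plagl1 and Snrpn, and in 11.61% of all windows, searched on both strands. The number of CpG dinucleotides was 11 in the Ndn window, 17 in Nnat, 13 in the Meg3 window and 7 in the Snrpn window shown, against a median of 7 over all windows. The start used for Ndn lies inside the GENCODE span of the gene.

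Values below are the authors' normalised expression signal, whose scaling is not stated. Low values fell mostly on a regular step in each library, read here as scaling to library size and not to gene length. Levels are therefore compared between libraries and not between genes. The libraries had an effective depth of 14740000 to 28170000 reads, estimated from the steps of low values, with Prkcz cKO replicate 3 the shallowest. Prkci fell in Prkci cKO cortex by 0.39 on the log2 scale (limma adjusted p = 9.84e-04), and Prkcz had a log2 difference of -0.22 in Prkcz cKO cortex that did not pass (adjusted p = 0.0966). Neuron markers summed to 9992 to 10892 in Prkci cKO, 10566 to 11021 in Prkcz cKO and 10086 to 10510 in controls, with 11 of 12 list genes in the table. Mature oligodendrocyte markers (10 of 10 in the table) summed to 2633 to 4281 in Prkci cKO, 3597 to 3946 in Prkcz cKO and 5025 to 7650 in controls. Deep layer cortical neuron markers (10 of 10 in the table) summed to 471 to 536 over the 11 libraries, while striatal markers (8 of 8) ranged from 259 to 507 in Prkci cKO, 539 to 1254 in Prkcz cKO and 553 to 905 in controls. In whole tissue, fewer cells of a type and less RNA per cell cannot be told apart.

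Ndn encodes necdin, a MAGE-family protein of postmitotic neurons and one of the genes lost in Prader-Willi syndrome. Its level was 188, 196, 206 and 178 in the 4 Prkci cKO libraries and 196, 212 and 213 in the 3 Prkcz cKO libraries, against 98.6 and 115 in the f/f controls and 180 and 181 in the f/+ controls. Both f/f controls thus lay under all 9 other libraries, and the f/+ controls lay within the range of the Prkci cKO libraries. The f/f mean was 107 ± 11.8 and the f/+ mean 180 ± 0.877 (SD, n = 2 each), a log2 difference of -0.75, so that f/f controls held 59.3% of the f/+ level. Ndn was picked for this gap, which is given with no test.

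The position of Ndn among all genes can be stated as a description. Of 9819 genes with a mean level of at least 10, 413 (4.21%) had both f/f controls under every other library and 375 (3.82%) had both above. The higher of the f/f values divided by the lowest value among the other 9 libraries was 0.646 for Ndn, the smallest of these 9819 genes. Ndn was chosen on its gap between the control genotypes, so nothing is read from this rank. Among the 8 imprinted genes, 2 differed by at least 0.5 on the log2 scale between f/f and f/+, Ndn and Nnat, where 3.08% of all 14330 genes tested did so, in either direction. Nothing is read from that count, since the contrast chose the group. Just short of 0.5 stood Meg3, at -0.45.

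**Figure D1:**
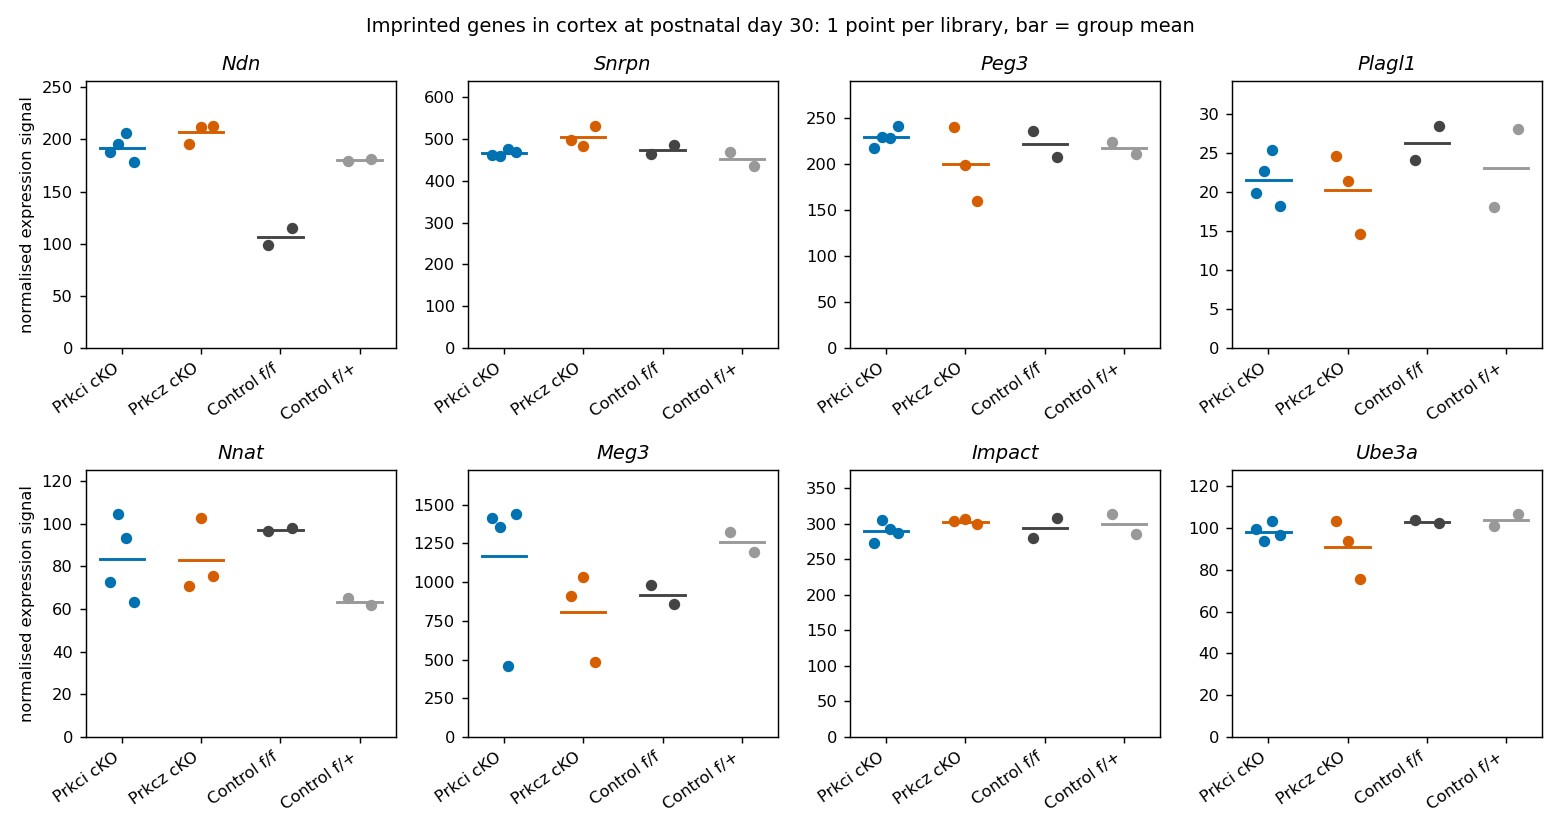
Normalised expression signal (vertical axis, from 0) of the 8 imprinted genes in each library, with 1 point per library and a bar at the mean of Prkci cKO, Prkcz cKO, f/f control and f/+ control libraries. Ndn is low in both f/f controls (98.6 and 115), Nnat is split within each knockout, Meg3 is low in Prkci cKO replicate 3 and Prkcz cKO replicate 3, and Snrpn and Impact vary little.

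The other genes of the Ndn domain did not share its pattern. Snrpn, whose protein SmN takes the place of SmB in the spliceosome of neurons, was 462, 459, 475 and 468 in Prkci cKO and 498, 482 and 532 in Prkcz cKO, against 463 and 484 in f/f controls and 468 and 435 in f/+ controls. The f/f and f/+ values overlap, with a log2 difference of 0.07. Snurf, read from the same transcript, was 467 ± 14.7 in f/f and 446 ± 23.1 in f/+ controls (SD, n = 2 each), which adds no separate evidence. Magel2, the MAGE-family gene next to Ndn, was close to the limit of the filter, at 2.03 and 2.19 in f/f controls and 1.88 and 0.98 in f/+ controls. It lay higher in both f/f controls than in either f/+ control, the opposite order to Ndn.

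Ube3a, the ubiquitin ligase lost in Angelman syndrome, was 99.4, 93.8, 103 and 96.9 in Prkci cKO and 103, 93.8 and 75.5 in Prkcz cKO, against 104 and 103 in f/f controls and 100.97 and 107 in f/+ controls. All 4 controls lay within a narrow band, and Prkcz cKO replicate 3 stood under every other library. That replicate was the lowest or the highest library for 5 of the 8 genes: it was lowest for Peg3, Plagl1 and Ube3a and highest for Ndn and Snrpn. In it, genes with a longest transcript under 2000 bases stood 0.105 above their mean in the other Prkcz cKO libraries (median, log2). Those over 6000 bases stood at -0.21. The difference of 0.315 compares with -0.223 to 0.063 in the other 10 libraries, each set against the rest of its own group. The -0.223 was that of Prkcz cKO replicate 1. Its reference included replicate 3, so it is not independent of the 0.315. The longest annotated transcripts are 9856 bases for Ube3a, 8694 for Peg3 and 5260 for Plagl1, against 3694 for Ndn and 2076 for Snrpn. Plagl1, Ndn and Snrpn thus fall in neither length class. Meg3, with 14548 bases, was also low in Prkcz cKO replicate 3, at 482. It was lower still in Prkci cKO replicate 3, at 456, where the difference between the length classes was -0.028. The part of depth and of transcript length in these values was not tested.

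Peg3 encodes a zinc finger protein known in mice for its role in maternal behaviour and growth. It was 217, 229, 228 and 242 in Prkci cKO and 240, 199 and 160 in Prkcz cKO, against 236 and 208 in f/f controls and 224 and 211 in f/+ controls. The Prkcz cKO libraries alone spanned both above and below all 4 controls. Usp29, which starts beside Peg3 on the opposite strand, was 47.8 in Prkcz cKO replicate 3 and 54.5 to 64.5 elsewhere, so that library was lowest for both genes.

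Plagl1, also called Zac1, encodes a zinc finger transcription factor that regulates other imprinted genes in mice. It was 19.8, 22.7, 25.4 and 18.2 in Prkci cKO and 24.6, 21.4 and 14.6 in Prkcz cKO, against 24.1 and 28.5 in f/f controls and 18.1 and 28.1 in f/+ controls. All groups overlapped, and the spread within the f/+ pair was wider than that across the Prkci cKO libraries. Impact (chromosome 18, 12955852 to 12992950), which restrains the GCN2 kinase of the amino acid response, ranged from 273 to 305 in Prkci cKO, 300 to 306 in Prkcz cKO and 280 to 313 in controls. Its highest library exceeded its lowest by a ratio of 1.148, the smallest among the 8 genes, and 88.4% of genes with a mean of at least 10 varied at least as much.

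Nnat encodes neuronatin, a small membrane protein of the endoplasmic reticulum linked to calcium handling. It was 72.5, 104, 93.1 and 63.4 in Prkci cKO and 70.6, 103 and 75.5 in Prkcz cKO, against 96.5 and 98.1 in f/f controls and 65.2 and 61.7 in f/+ controls. The f/f mean was 97.3 ± 1.12 and the f/+ mean 63.5 ± 2.496 (SD, n = 2 each), a log2 difference of 0.61. The Prkci cKO libraries, all of 1 labelled genotype, covered nearly the whole range of the controls, and the Prkcz cKO libraries most of it. Blcap, whose span holds Nnat, was 79.9 to 80.4 in f/f and 76.1 to 78.5 in f/+ controls.

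The 5 libraries with the highest Nnat (both f/f controls, Prkci cKO replicates 2 and 3 and Prkcz cKO replicate 2) were also the 5 highest for several other genes and for 2 marker lists. Dlk1, an imprinted gene on chromosome 12 for a membrane protein related to Notch ligands, and chosen after its values were seen, was 5.08 to 6.39 in those 5 libraries and 1.10 to 4.25 in the other 6. By the mean absolute difference between centred log2 levels over the 11 libraries, the genes most like Nnat among 12132 were Hap1 (0.099), Fam70a (0.106), Pdzk1 (0.109), Nr2f2 (0.116) and Hpcal1 (0.117), where the median gene had 0.276. All but Fam70a, which shared 4, had the same 5 highest libraries. This measure was applied to Nnat and to Meg3 after their values were seen. Hap1, a huntingtin-associated protein, was 113 to 130 in the 5 libraries and 80.5 to 99.8 in the other 6, and Nr2f2, a nuclear receptor, was 29.3 to 35.6 and 21.1 to 25.4. The marker list for hypothalamic and subcortical neurons (7 of 12 genes in the table) summed to 32.3 to 39.1 in the 5 libraries and 22.1 to 31.3 in the other 6. The hippocampal list (6 of 6) summed to 145 to 182 and 120 to 144. The sums of the other 14 marker lists overlapped between the 5 libraries and the other 6. Within the lists few members followed. Of the 7 subcortical genes, 2 lay above in all 5 libraries, Trh (3.55 to 8.56, and 0.89 to 3.52 in the other 6) and Calb2 (13.97 to 15.7, and 9.41 to 13.8). Of the 6 hippocampal genes, 0 did. Wfs1, which carried most of that sum, was 117 to 149 in the 5 libraries and 87.3 to 117 in the other 6, while Prox1 was 6.75 to 9.60 and 7.32 to 13.2. Of the hypothalamic neuropeptide genes, Hcrt, Pmch, Avp, Oxt and Agrp were not analysed here. The part of the tissue taken in each punch in the Nnat values was not tested.

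Meg3 varied most among the 8 genes. Its level was 1415, 1358, 456 and 1438 in Prkci cKO and 909, 1034 and 482 in Prkcz cKO, against 980 and 859 in f/f controls and 1321 and 1195 in f/+ controls. The highest library exceeded the lowest by a ratio of 3.16, and 0.6% of genes with a mean of at least 10 varied at least as much. Prkci cKO replicate 3 and Prkcz cKO replicate 3 stood far under the other 9 libraries. Both f/f controls lay below both f/+ controls, with means of 919 ± 85.6 and 1258 ± 89.3 (SD, n = 2 each).

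The noncoding RNAs that follow Meg3 on chromosome 12 were lowest in the same libraries. Rian, host of small nucleolar RNAs, was 356 in Prkci cKO replicate 3 and 362 in Prkcz cKO replicate 3, against 384 to 442 in the other 9 libraries. Mirg, host of a microRNA cluster, was 2.69 and 1.96 in these libraries, against 3.34 to 5.89 in the others. The gap in Rian was thus small beside that in Meg3, although the 3 RNAs come from 1 strand of 1 domain. The genes with the profile most like Meg3 were the long noncoding RNAs Snhg11 and Miat and unnamed gene models: Snhg11 (0.071), Miat (0.089), A930011O12Rik (0.098), A230006K03Rik (0.099) and A330023F24Rik (0.142), where the median gene had 0.447. Snhg11 was 293 and 308 in those 2 libraries and 493 to 800 in the other 9, and Miat was 110 and 118 against 172 to 310. Malat1, a nuclear RNA chosen after its values were seen, was 205 and 134 there and 217 to 428 elsewhere. Kcnq1ot1, an imprinted antisense RNA also chosen so, was 5.31 and 3.12, and 5.87 to 10.03 elsewhere. Rtl1, another imprinted gene of the domain, was at 0.62 and 0.86, under the filter, and at 0.96 to 2.49 elsewhere. Neat1 and Dlk1, also picked with their values known, did not follow. The nuclear RNA Neat1 was lowest in Prkci cKO replicate 3, at 8.93, but stood at 15.5 in Prkcz cKO replicate 3, above Prkcz cKO replicate 1 and both f/f controls. Dlk1, of the same domain as Meg3, was highest in Prkci cKO replicate 3. The depths of Prkci cKO replicate 3 and Prkcz cKO replicate 3, 24750000 and 14740000 reads, were the second highest and the lowest, and none of the 16 marker lists had both of them above or both below all the others.

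The genes whose profile was most like that of Ndn were found by the same measure, over 11 libraries and the 12132 genes whose log2 values averaged at least 2. They were Rbm3 (0.106), Cirbp (0.115), Dbp (0.130), Haus1 (0.138) and Kbtbd5 (0.145), where the median gene had 0.272. None is on the lists of imprinted genes used here. Rbm3 and Cirbp encode RNA-binding proteins induced by mild cold, and Dbp is a transcription factor driven by the circadian clock. Rbm3 was 52.1 to 66.3 in Prkci cKO and 53.8 to 63.1 in Prkcz cKO, against 29.4 and 39.6 in f/f controls and 45.9 and 52.0 in f/+ controls. Cirbp was 25.4 and 26.4 in f/f controls and 34.7 to 44.0 in the other 9 libraries, and Dbp was 29.2 and 34.2 in f/f controls, with no other library as low. For Rbm3, Cirbp, Dbp and Kbtbd5, but not for Haus1, the 2 lowest libraries were both f/f controls, as for Ndn. The measure includes the libraries on which Ndn was chosen, so a gene had to be low in the f/f controls to rank high by it.

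**Figure D2:**
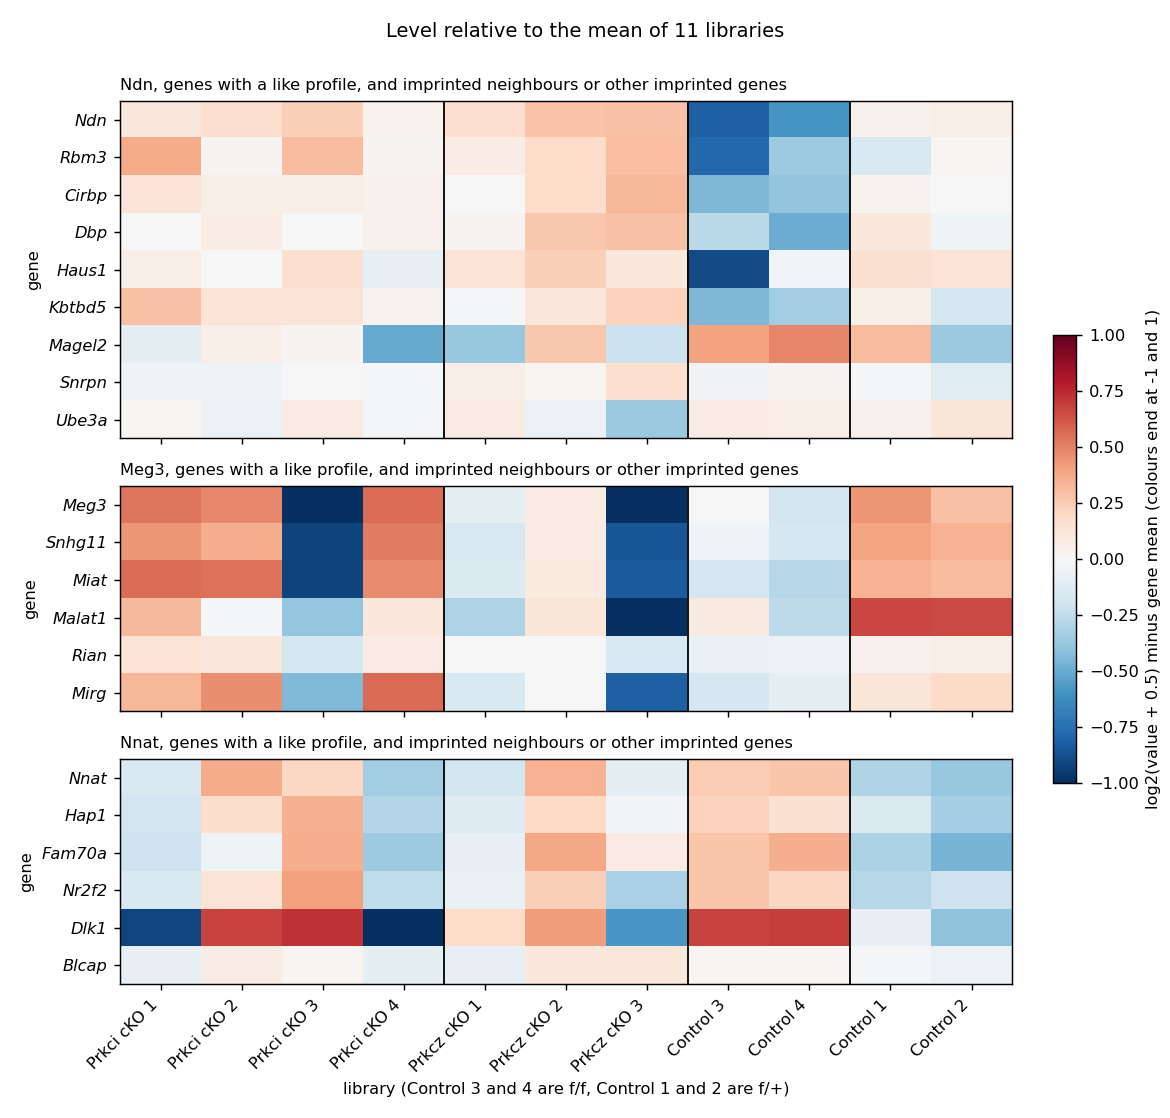
Level of each gene (rows) in each library (columns, with lines between Prkci cKO, Prkcz cKO, f/f control and f/+ control libraries) as log2(value + 0.5) minus the mean of the gene over 11 libraries, with colours ending at -1 and 1. Blue marks the f/f controls for Ndn, Rbm3, Cirbp and Dbp but not for Snrpn or Ube3a, and marks replicate 3 of both knockouts for Meg3, Snhg11 and Miat, with paler blue for Rian. Nnat, Hap1, Nr2f2 and Dlk1 are red in the same 5 libraries, and Dlk1 is also pale red in Prkcz cKO replicate 1.

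The comparison of Prkci cKO with control cortex addressed what differed in cortex when floxed Prkci was combined with Ng2-Cre. None of the 8 passed the threshold in the limma fit over 14330 genes, of which 1.61% were called. At an unadjusted p under 0.05 stood 1 of the 8, Ndn, where 12.1% of all genes tested did. Ndn averaged 192 ± 11.6 in Prkci cKO and 144 ± 42.8 in controls (SD, n = 4 each), a log2 difference of 0.47 (SE 0.155, adjusted p = 0.212), and the groups overlapped. The other differences were between -0.18 for Plagl1 (SE 0.165, adjusted p = 0.725) and 0.06 for Peg3, and the 8 genes had a median of -0.0039, against 0.0021 over all genes. For Snrpn the 95% interval ran from -0.09 to 0.11 and for Impact from -0.14 to 0.07. For Meg3 it ran from -0.73 to 0.69, the widest of the 8.

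The comparison of Prkcz cKO with control cortex gave the same count of 0 of 8, where 0.649% of genes were called. At an unadjusted p under 0.05 stood 3 of the 8, Ndn, Snrpn and Ube3a, where 15% of all genes tested did. Ndn averaged 207 ± 9.74 in Prkcz cKO (SD, n = 3) and 144 ± 42.8 in controls (SD, n = 4), a log2 difference of 0.57 (SE 0.168, adjusted p = 0.144). All 3 Prkcz cKO libraries were higher than all 4 controls. Snrpn averaged 504 ± 25.5 against 463 ± 20.3 in controls, a log2 difference of 0.12 (SE 0.049, adjusted p = 0.262). Ube3a averaged 90.9 ± 14.2 against 103 ± 2.40 in controls, a log2 difference of -0.20 (SE 0.081, adjusted p = 0.275), with 1 of the 3 libraries inside the control range. Without replicate 3 of Prkcz cKO the Ube3a difference was -0.07. Meg3 had the largest difference in this comparison after Ndn, -0.48, with the widest error (SE 0.355, adjusted p = 0.544). The median of the 8 genes was -0.06, against -0.0061 over all genes. Both comparisons use the same controls, so the values of Ndn in them are not independent of each other, and both include the libraries that led to its choice.

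How far Ndn stood from controls depended on which controls were used. Against f/f controls alone its log2 difference was 0.84 (SE 0.074) in Prkci cKO and 0.95 (SE 0.078) in Prkcz cKO. Against f/+ controls alone it was 0.09 in Prkci cKO and 0.20 in Prkcz cKO. The f/f controls share the floxed Pkcz genotype of the Prkcz cKO animals without Cre in their label, and they held the lowest Ndn of all groups. These values rest on the libraries on which the gene was chosen, so no test of them is read.

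**Figure D3:**
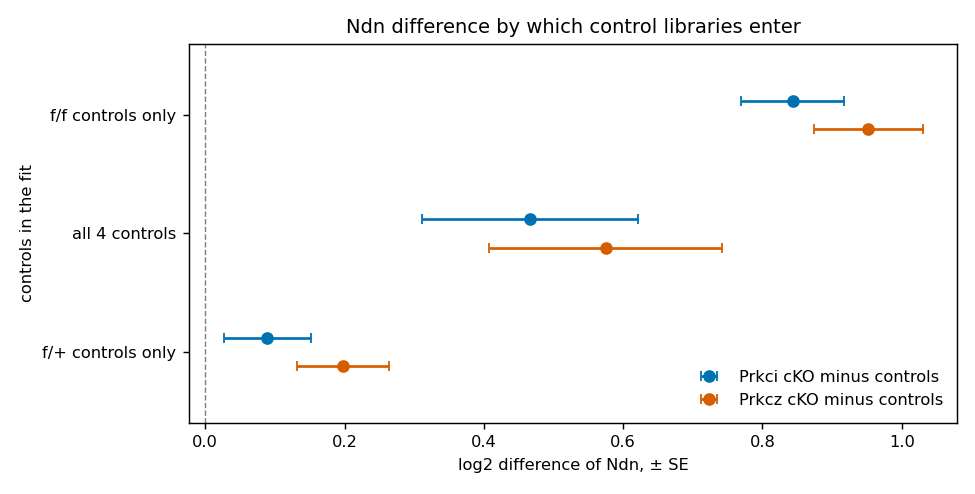
Log2 difference of Ndn (horizontal axis, with bars of 1 SE) of Prkci cKO and Prkcz cKO from f/f controls only, all 4 controls and f/+ controls only (rows). The differences are 0.84 and 0.95 against f/f controls, 0.47 and 0.57 against all controls, and 0.09 and 0.20 against f/+ controls.

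The comparison of Prkci cKO with Prkcz cKO sets no control library against another group, but the controls enter the shared estimate of the spread. Again 0 of 8 genes passed, where 0.3% of genes were called, and 2 of 8, Snrpn and Peg3, had an unadjusted p under 0.05, where 16% of all genes tested had. Ndn averaged 192 ± 11.6 in Prkci cKO (SD, n = 4) and 207 ± 9.74 in Prkcz cKO (SD, n = 3), a log2 difference of -0.11 (SE 0.168, adjusted p = 0.777). Its 95% interval ran from -0.47 to 0.25. With only the knockouts in the fit, the SE was 0.058 and the adjusted p 0.374. Snrpn differed by -0.11 (adjusted p = 0.291) and Peg3 by 0.22 (adjusted p = 0.311). Meg3 had a log2 difference of 0.46 (SE 0.355, adjusted p = 0.531), and the median of the 8 genes was 0.06, against -0.0054 over all genes.

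**Figure D4:**
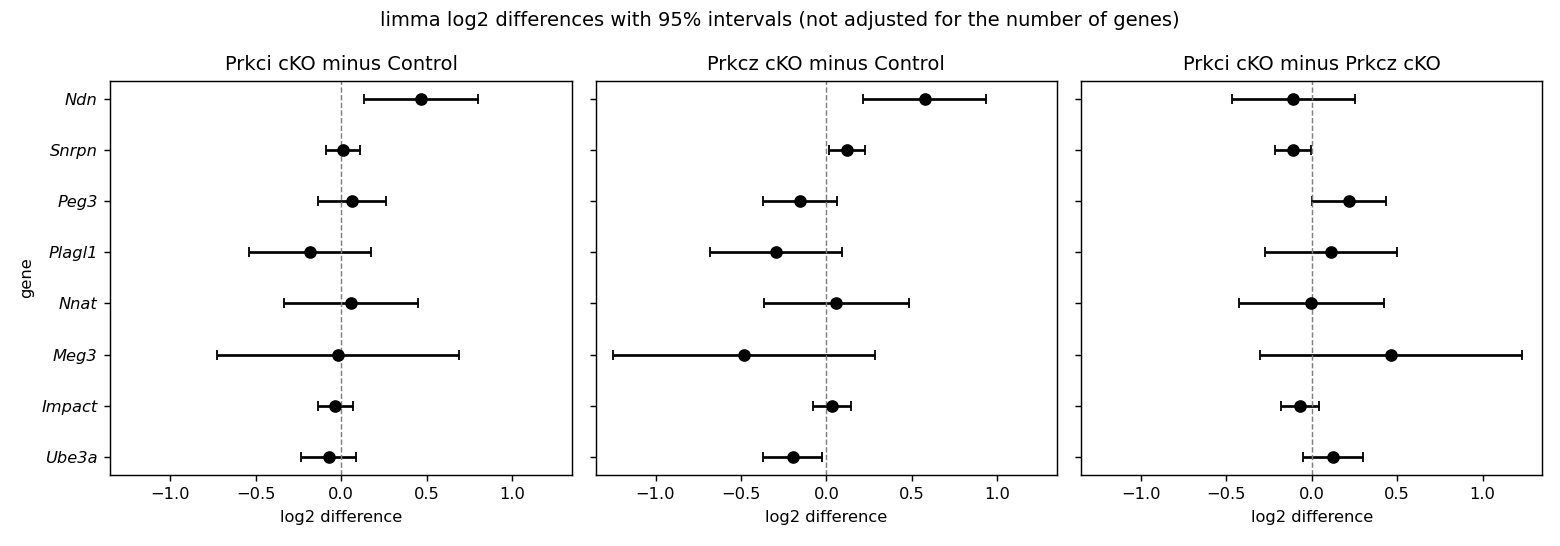
Log2 differences (horizontal axes) of the 8 genes in the 3 comparisons from the limma fit, with 95% intervals that are not adjusted for the number of genes. Ndn lies at 0.47 and 0.57 against controls and at -0.11 between the knockouts, and Meg3 has the widest interval in each.

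The low library of each knockout carried much of the error of Meg3. Without replicate 3 of both knockouts, a choice made after the values were seen, Meg3 in Prkci cKO stood 0.39 above controls (SE 0.117, limma adjusted p = 0.140), in place of -0.02 (SE 0.329) with all libraries. In Prkcz cKO it stood at -0.15 (adjusted p = 0.819), in place of -0.48. None of the 8 genes passed in any comparison without these 2 libraries.

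The wider set of imprinted genes gave the same picture. Of 51 other imprinted genes listed, 44 were in the table and 37 were tested, and limma called 0 in each of the 3 comparisons, with 6, 4 and 6 at an unadjusted p under 0.05. Over all genes tested, the shares at that level were 12.1%, 15% and 16% in the same order, so these counts stood near the background. Their median log2 difference against controls was -0.02 in Prkci cKO and -0.07 in Prkcz cKO, and 0.03 between the knockouts, beside the medians of all genes given above. The smallest adjusted p in Prkci cKO was 0.117, for Inpp5f, an inositol phosphatase gene, at 95.8 to 99.6 in Prkci cKO and 103 to 127 in controls (log2 difference -0.21). Peg10, a gene derived from a retrotransposon, had log2 differences of -0.34 (adjusted p = 0.260) in Prkci cKO and -0.33 (adjusted p = 0.284) in Prkcz cKO. Without Prkci cKO replicate 3 it passed in Prkci cKO, at -0.48 (adjusted p = 0.0424). Trappc9 had 0.15 in Prkci cKO (adjusted p = 0.223). The smallest in Prkcz cKO was Nap1l5, at 344 to 366 in Prkcz cKO and 313 to 334 in controls (log2 difference 0.17, adjusted p = 0.138). Between the knockouts it was Atp10a, a phospholipid flippase gene beside Ube3a, which had 0.42 (adjusted p = 0.185).

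Among 13 tested neighbours of Ndn, Snrpn and Ube3a, 4 of Peg3, 10 of Meg3, 8 of Nnat and 3 of Impact, limma called 0 in each comparison. These lists share genes, such as Snurf, Atp10a, Rian and Mirg, with the imprinted genes counted above. Snurf also shares its transcript with Snrpn, so the counts are not of separate genes. The numbers at an unadjusted p under 0.05 were 1, 0, 0, 0 and 0 in Prkci cKO, 3, 0, 0, 2 and 0 in Prkcz cKO, and 5, 0, 2, 3 and 0 between the knockouts, beside 12.1%, 15% and 16% of all genes. Of 15 tested regulators of imprinting, among them DNA methyltransferases and the zinc finger proteins that protect imprints, 0 were called and 0, 4 and 5 had an unadjusted p under 0.05, beside the same shares of all genes. Tet2, which oxidises methylcytosine, had the smallest adjusted p among them, with a log2 difference of -0.34 in Prkcz cKO (adjusted p = 0.169).

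In the network of genes tied to Plagl1 in mice, 1 of 11 tested genes passed in each comparison with controls and 0 between the knockouts, where 1.51% of all genes were called lower in Prkci cKO and 0.621% in Prkcz cKO. Gatm, which makes the creatine precursor guanidinoacetate, fell in both knockouts. It was 53.2, 42.7, 41.9 and 50.9 in Prkci cKO and 48.5, 45.5 and 47.3 in Prkcz cKO, against 59.0 and 60.7 in f/f controls and 74.3 and 72.2 in f/+ controls. No knockout library reached any control. The log2 difference was -0.49 in Prkci cKO (SE 0.090, limma adjusted p = 0.0118) and -0.49 in Prkcz cKO (SE 0.097, adjusted p = 0.0379), and Plagl1 itself did not pass in either. The call was lost without Prkci cKO replicate 2 (adjusted p = 0.0568), against f/f controls alone (0.112 and 0.190) and, in Prkcz cKO, without any of 5 single libraries (0.0630 to 0.142). In Prkcz cKO it was also lost after scaling to the column sum (0.0734), without a variance trend (0.104) and with only both groups fitted (0.0625). Mature oligodendrocyte markers, whose sums are given above, were lower in the same libraries, and their part in the Gatm difference was not tested. With Gatm counted, 3 of the 11 had an unadjusted p under 0.05 in Prkci cKO, 1 in Prkcz cKO and 1 between the knockouts, where 12.1%, 15% and 16% of all genes had. Some of these, such as Sgce in Prkci cKO, are also among the other imprinted genes counted above.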

How the data were processed

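RNA from 4 mm cortical punches of 11 mice at postnatal day 30 was sequenced as 1 library each. Per the submitters' processing notes, FastQC, Trim Galore, STAR, RSEM and edgeR were used on GRCm38, with no versions named. The deposited signal is a normalised value of each gene in each library, with 2 decimals and column sums of 1021767 to 1082562. The sources used here do not state how libraries were scaled. Of values under 0.5, 85.9% to 89.2% lay within 0.005 of a whole multiple of 1 step per library, which gave the effective depth. The rest did not come out as whole reads, so no count test was run.

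Genes that reached 1 in at least 3 libraries (14330 of 16228) were analysed as log2(value + 0.5), on which fold changes of low genes come out too small. All 11 libraries entered 1 fit with limma 3.58.1 in R 4.3.3 (eBayes with a variance trend) and no covariate. Tests were two-sided, with Benjamini-Hochberg adjustment over all genes tested and a threshold of 0.05. The series design describes the replicates as biological. Cre is named only in the knockout labels, so it cannot be told apart from loss of either kinase. Floxed Prkci occurs only in Prkci cKO and cannot be told apart from it either. The controls all carry floxed Pkcz, as f/f or f/+, so that floxed line is shared with Prkcz cKO.

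The members and lists were chosen with earlier results of these data known. The named genes are the 8 members, Prkci and Prkcz, genes of each list past the threshold or among the smallest p-values in it, and the 5 genes with the profile most like Ndn. Any other gene was named with its values known. Not each is marked so in the text, as with Rtl1, Dio3, Wfs1 and Prox1. Gene symbols follow the table, and lengths were found for 8946 of 9819 genes. Alternatives covered the pseudocount, filter, scaling, variance model, libraries fitted, control genotype, replicate block and leaving out each library. Tables and figures used Python 3.11.15, pandas 2.3.3 and matplotlib 3.10.9.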

Additional observations from a re-analysis of the deposited data

Results flagged for a closer look

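Meg3 in Prkci cKO replicate 3 was 455.72, far below the other Prkci cKO libraries, which lay between 1358 and 1438. The gap to the nearest library was 0.919 of the range of the group, above Dixon's 95% critical value for 4 libraries. This was 1 of 16 groups checked, and chance flags about 1 in 20 groups. Rian, Mirg, Snhg11, Miat and Malat1 were also low in Prkci cKO replicate 3, as the report gives.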

How the results depend on the processing

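Of 448 recomputed log2 differences of the 8 genes, 421 kept their direction and their side of the threshold, 2 passed newly and 25 changed sign. Both that passed newly were Ndn against f/f controls alone, 1 in each comparison with controls. Ndn was chosen for its low level in those libraries, so nothing is read from these calls. In every other alternative run, 0 of the 8 passed. All sign changes were in values that never passed, and their cause was not tested. Against f/f controls alone, Snrpn was -0.023, Nnat -0.25 and Meg3 0.21 in Prkci cKO, and Nnat was -0.25 in Prkcz cKO. Without replicate 3 of both knockouts, Nnat was -0.0052 and Meg3 0.39 in Prkci cKO, and between the knockouts Plagl1 was -0.18 and Ube3a -0.027. Leaving out 1 library at a time gave -0.0176 to 0.0335 for Snrpn, -0.06 to 0.18 for Nnat and -0.17 to 0.39 for Meg3 in Prkci cKO. It gave -0.11 to 0.16 for Nnat in Prkcz cKO, and -0.10 to 0.27 for Plagl1, -0.12 to 0.16 for Nnat and -0.0028 to 0.22 for Ube3a between the knockouts. Ndn stayed positive against controls, at 0.30 to 0.59 in Prkci cKO (adjusted p 0.078 to 0.464) and 0.41 to 0.70 in Prkcz cKO (0.0902 to 0.367).

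Over all genes, calls in Prkci cKO numbered 230, with 132 against f/f controls alone and 94 to 211 leaving out 1 library. In Prkcz cKO they numbered 93, with 39 after scaling to the column sum, 30 without a variance trend, 28 with only both groups compared, 59 against f/f controls, 27 without replicate 3 of both knockouts and 12 to 76 leaving out 1 library. Between the knockouts they numbered 43, with 11 without replicate 3 of both knockouts and 10 to 151 leaving out 1 library. Scaling to the column sum moved the share of higher calls between the knockouts to 65.0%, against 79.1%.

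The main fit did not pair samples by replicate number. Same-numbered libraries of different groups had correlations of -0.186 to 0.196 between their deviations over 10 pairs. Of 11 libraries, 6 correlated best with a library of their own number, and pairing was not tested. With the replicate block, calls over all genes were 263, 69 and 73, 0 of the 8 genes passed, Ndn had log2 differences of 0.47, 0.51 and -0.05, and Nnat between the knockouts was 0.0063. Depth limits Magel2, Rtl1, Dlk1 and Dio3, whose values are near the filter.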

Other observations

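Igf2, a paternally transcribed growth factor gene that is strongly expressed in the choroid plexus and meninges, was chosen after its values were seen. It was 64.6 in control replicate 1, an f/+ library, and between 118 and 165 in the other 10 libraries. The choroid plexus and ependyma list summed to 100.4 in that library and 437 to 979 in the others, and the meninges and fibroblast list to 106.8, against 179 to 270. The part of these tissues in the Igf2 value was not tested. Dio3, the imprinted deiodinase gene at the far end of the Meg3 domain, was 2.95 and 3.07 in f/f controls and 1.84 and 0.93 in f/+ controls, with 0.88 to 2.58 in the knockouts, all near the filter.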
